A study of Mus musculus with 4 samples.

Results

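The genes of 10 enzymes that build, remodel or burn fatty acids were followed in primary mouse T cells. The genes were taken by symbol: Acly, Acaca, Acacb and Fasn of fatty-acid synthesis, Scd1, Scd2, Elovl1 and Elovl6 of desaturation and elongation, and Cpt1a and Cpt2 of carnitine-dependent transfer into mitochondria. All 10 were found among the 50600 annotated genes of the count tables. The RNA came from T cells of inbred C57BL/6NJ mice, with 4 libraries in 1 group, numbered by the labels as biological replicates 1 to 4. Age is given as unknown and sex as not collected. The labels title the assay total RNA-seq but link protocols for poly(A)+ libraries and for CD4+ T-cell differentiation. For every library the alignment named in the file's header is called Th0, activated, 24 h, words that the labels do not hold. With 1 group there was no contrast between conditions, so the questions were how far the enzymes of each arm were transcribed, in what order, and how far the replicates differed.

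Fatty-acid synthesis starts in the cytosol, where citrate exported from mitochondria is cleaved to acetyl-CoA, carboxylated to malonyl-CoA and polymerised to palmitate. Desaturases and elongases of the endoplasmic reticulum then turn palmitate into membrane lipids' other acyl chains. Oxidation runs the other way: long-chain acyl groups are passed to carnitine, carried across the inner mitochondrial membrane and passed back to CoA, and malonyl-CoA inhibits the first of these steps. Dividing T cells are known to need fatty-acid synthesis, and oxidation is usually discussed for memory and regulatory T cells.

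Replicate 2 was sequenced deepest, with 273136467 fragments assigned to genes against 47558517 to 60102919 in the other libraries. Xist stood at 163 and 150.5 TPM in replicates 1 and 2 and at 0.715 and 0.696 TPM in replicates 3 and 4, and the Y-linked Ddx3y was below 0.05 TPM in replicates 1 and 2 and at 38.8 and 39.3 TPM in replicates 3 and 4. By these genes replicates 1 and 2 came from female cells and replicates 3 and 4 from male cells, so the 4 libraries were not all from 1 animal. No label states how many animals were used. Errors therefore measure the spread between these libraries, which mixes the sexes and may be partly technical. All 8 T-cell markers were above 10 TPM in every library. Of 6 adipocyte markers, 5 had no fragment in any library (Plin1, Fabp4, Cidec, Lep and Cfd), and Adipoq had 6 fragments over the 4 libraries. The 6 hepatocyte markers and the 7 myeloid markers were below 1 TPM in every library, and the 5 B-cell markers summed to between 2.31 and 5.27 TPM.

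Levels are given as TPM, the count of a gene divided by its exon length and scaled to the same total in every library. A level of 10 TPM was reached in all 4 libraries by 8 of the 10 genes, and by 16.0% of all annotated genes and 63.8% of the 12712 genes that passed a filter on low counts. The exceptions were Acacb and Scd1. Scd1 reached 1 TPM in every library, so that 9 of the 10 genes did, against 22.7% of all annotated genes. Acacb stayed below 1 TPM in every library, as did 73.2% of all annotated genes. Over the 10 genes the median of the mean levels was 28.6 TPM, against 23.0 TPM over the genes past the filter. The genes took 0.231 ± 0.0145% of all fragments (SD, n = 4), and Fasn and Acly together made up 73.7 ± 0.933% of the fragments of the 10 genes.

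**Figure D1:**
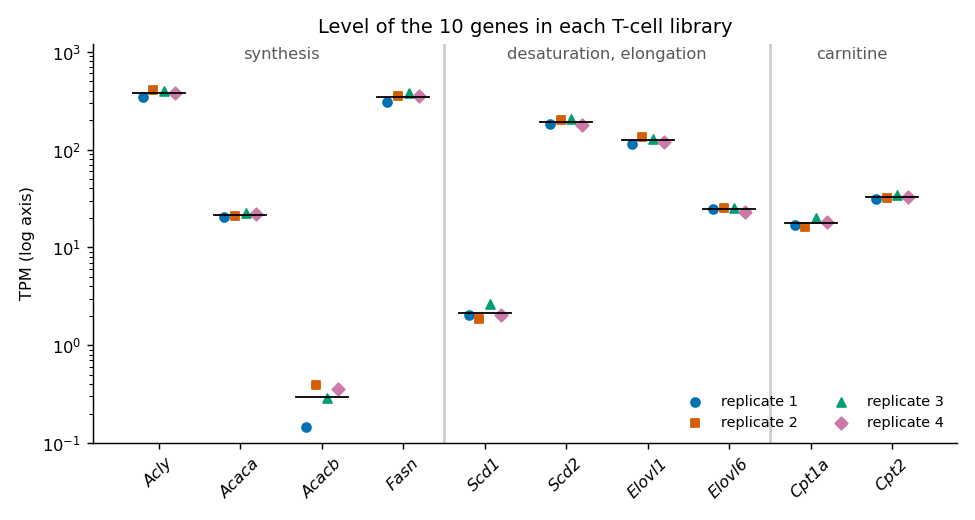
TPM of each gene (log axis) in the 4 T-cell libraries, one symbol per library and a bar at the mean, ordered by role. Acly and Fasn are the highest, from 306 TPM upwards, Acacb reaches at most 0.396 TPM, and Scd1 lies between 1.85 and 2.65 TPM.

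Acly and Fasn, the enzymes at the entry and the end of cytosolic synthesis, were the highest of the 10 genes. Acly encodes ATP-citrate lyase, which makes cytosolic acetyl-CoA (mm10 chromosome 11, 100476353 to 100528000, minus strand, ENSMUSG00000020917.17). It stood at 349, 402.5, 399 and 379.6 TPM in replicates 1 to 4, a mean of 383 ± 24.8 (SD, n = 4), above 96.6% of the genes past the filter. Fasn encodes fatty acid synthase, the multi-domain enzyme that assembles palmitate (chromosome 11, 120805846 to 120824547, minus strand, ENSMUSG00000025153.9). It stood at 306, 354, 379 and 353 TPM, a mean of 348 ± 30.4 (SD, n = 4), above 96.1% of the genes past the filter. Replicate 1 was the lowest library for both genes. Acly exceeded Fasn within every library, but their library values overlapped, and the difference was 0.14 ± 0.06 on the log2(TPM + 1) scale, or 0.27 ± 0.06 with the longest coding transcript as length (SD, n = 4).

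The bases before the transcription start of these 2 most abundant genes and of Cpt1a are shown because SREBP factors and general promoter factors are classically studied at such sites. They were taken from RefSeq (GRCm38.p6), which listed a promoter for 8 of the 10 genes, and each is the 250 bases before the start, written in the direction of transcription. Capitals mark matches on either strand to the CCAAT box (CCAAT) or the GC box (GGGCGG). Fasn lies at chr11:120824548-120824797 on the minus strand, Acly at chr11:100528001-100528250 on the minus strand and Cpt1a at chr19:3323051-3323300 on the plus strand.
Fasn: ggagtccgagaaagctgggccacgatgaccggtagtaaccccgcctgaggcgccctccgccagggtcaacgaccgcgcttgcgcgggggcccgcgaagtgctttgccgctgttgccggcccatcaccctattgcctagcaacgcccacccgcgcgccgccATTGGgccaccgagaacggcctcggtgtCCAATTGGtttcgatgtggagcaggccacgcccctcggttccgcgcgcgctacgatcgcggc
Acly: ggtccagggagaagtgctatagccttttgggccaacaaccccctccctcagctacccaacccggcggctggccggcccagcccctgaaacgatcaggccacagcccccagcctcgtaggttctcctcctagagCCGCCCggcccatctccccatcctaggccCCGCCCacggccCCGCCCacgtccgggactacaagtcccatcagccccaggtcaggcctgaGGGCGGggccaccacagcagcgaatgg
Cpt1a: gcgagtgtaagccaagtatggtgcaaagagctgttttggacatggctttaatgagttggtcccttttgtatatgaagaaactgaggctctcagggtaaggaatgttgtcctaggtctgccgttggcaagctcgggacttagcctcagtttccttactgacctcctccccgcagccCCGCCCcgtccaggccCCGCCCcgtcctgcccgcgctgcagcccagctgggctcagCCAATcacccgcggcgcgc
Fasn held 3 matches to the CCAAT box, of which a forward and a reverse one overlap, Acly held 4 matches to the GC box, and Cpt1a held both kinds. Not every window lies before the gene as annotated in the counts. The windows of Acaca, from 84195188, and of Acacb, from 114165268, lie inside it, as does a second window of Elovl1. Those of Acacb, Cpt2 and Elovl6 hold 9, 21 and 31 bases of exons of their own gene. A CCAAT box was found in the windows of 4 of the 8 genes and in 33.8% of 32851 RefSeq promoters of the same length. A GC box was found in the windows of 4 of the 8 genes and in 32.7% of the promoters. The sterol regulatory element written as TCACNCCAC and the E-box CACGTG were searched in the same windows. They were found for 0 of the 8 genes, against 1.05% and 6.02% of all promoters. The PPAR response element, searched as a direct repeat of AGGTCA with 1 base between, was likewise found for 0 of the 8 genes, against 0.0335% of all promoters. At such shares a count of 0 among 8 genes was the likely outcome and tells nothing particular to these genes. These matches describe letters in a short window, and no measurement of binding was made.

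Of the acetyl-CoA carboxylases, which make malonyl-CoA, the cytosolic form stood near 20 TPM and the mitochondrial form below 1 TPM. Acaca, the form that feeds Fasn (chromosome 11, 84129672 to 84401651, plus strand, ENSMUSG00000020532.18), stood at 20.3, 21.0, 22.7 and 21.8 TPM in replicates 1 to 4, a mean of 21.5 ± 1.03 (SD, n = 4). Acacb, the form at the outer mitochondrial membrane whose malonyl-CoA inhibits carnitine transfer (chromosome 5, 114146535 to 114250761, plus strand, ENSMUSG00000042010.16), stood at 0.146, 0.396, 0.287 and 0.355 TPM, from 25, 302, 39 and 48 fragments. The values of the paralogues did not overlap, and the ratio of Acaca to Acacb within a library lay between 53.0 and 139. With the longest coding transcript as length in place of the union of exons, the ratio lay between 86.7 and 227.5. Acacb was lowest in replicate 1. There the exact 95% Poisson interval, which covers counting error only, ran from 0.0947 to 0.216 TPM, below the interval of 0.353 to 0.443 TPM in replicate 2. No window of 50 bases in the longest coding transcript of Acaca (0 of 9464) occurred in that of Acacb.

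Among the stearoyl-CoA desaturases, which place the first double bond into saturated acyl-CoA, nearly all transcripts were of Scd2. Scd2 (chromosome 19, 44293676 to 44306864, plus strand, ENSMUSG00000025203.5) stood at 182, 203, 203 and 177 TPM in replicates 1 to 4, a mean of 191 ± 13.6 (SD, n = 4). Scd1, the form best known from liver and fat (chromosome 19, 44394451 to 44407709, minus strand, ENSMUSG00000037071.2), stood at 2.04, 1.85, 2.65 and 2.03 TPM, a mean of 2.14 ± 0.349 (SD, n = 4), from 138 to 707 fragments. The desaturases lie close together on chromosome 19, and the ratio of Scd2 to Scd1 within a library ran from 76.6 to 109.8. The neighbouring paralogues Scd3 and Scd4 had no fragment and 46 fragments over the 4 libraries, and 0 fragments of Scd3 allow up to 0.0616 TPM in the shallowest library, counted as 3 fragments. Of the 50-base windows of the Scd2 transcript 2.68% also occur in that of Scd1 and 1.13% in that of Scd4. Fragments that align only there would be lost from these genes, because fragments aligned to several places were not counted.

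Both elongases were transcribed, Elovl1 above Elovl6. Elovl1, which extends saturated and monounsaturated acyl chains to very long ones (chromosome 4, 118428093 to 118432953, plus strand, ENSMUSG00000006390.15), stood at 114, 133, 129 and 120.4 TPM in replicates 1 to 4, a mean of 124 ± 8.39 (SD, n = 4). Elovl6, which extends palmitate to stearate (chromosome 3, 129532355 to 129638495, plus strand, ENSMUSG00000041220.10), stood at 24.8, 25.05, 25.5 and 23.1 TPM, a mean of 24.6 ± 1.08 (SD, n = 4). The libraries did not overlap between these genes, and the ratio of Elovl1 to Elovl6 ran from 4.61 to 5.32. Of the other elongase genes, Elovl5, which acts on polyunsaturated chains, stood at 87.1 ± 3.24 TPM, Elovl7 at 1.13 ± 0.305 (SD, n = 4 each), and Elovl2, Elovl3 and Elovl4 were below 1 TPM in every library. Of the 15 other genes of elongation and desaturation 7 reached 10 TPM throughout, among them Hsd17b12 at 150.4 ± 2.82 and Tecr at 149 ± 8.55 TPM, which encode reductases of the elongation cycle, and Hacd3, which encodes a dehydratase of that cycle, at 142 ± 4.66 TPM (SD, n = 4 each).

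The carnitine palmitoyltransferases were present at lower levels than Acly, Fasn, Scd2 and Elovl1. Cpt1a, the liver-type enzyme of the outer mitochondrial membrane that loads acyl groups onto carnitine (chromosome 19, 3323301 to 3385732, plus strand, ENSMUSG00000024900.4), stood at 16.8, 16.1, 20.05 and 18.0 TPM in replicates 1 to 4, a mean of 17.7 ± 1.74 (SD, n = 4). Cpt2, the inner-membrane enzyme that returns them to CoA (chromosome 4, 107903981 to 107923610, minus strand, ENSMUSG00000028607.16), stood at 31.2, 32.3, 34.7 and 32.4 TPM, a mean of 32.7 ± 1.47 (SD, n = 4). Replicate 3 was the highest library for both. The other Cpt1 genes were far lower. Cpt1b, the muscle form, stood at 1.01 ± 0.521 TPM and Cpt1c, the neuronal form, at 1.61 ± 0.818 TPM (SD, n = 4 each), and the mean of Cpt1a was 17.5-fold and 10.99-fold higher. With the longest coding transcript as length, the mean of Cpt1a was 5.45-fold higher than that of Cpt1c. Cpt1b had 0.267 TPM in replicate 1 and 1.05 to 1.37 TPM in the other libraries.

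Within libraries, the genes of synthesis and of carnitine transfer did not separate into 2 levels. The 8 genes of synthesis, desaturation and elongation summed to 1094.5 ± 73.3 TPM and the 2 carnitine genes to 50.4 ± 3.10 TPM (SD, n = 4 each). Fasn exceeded Cpt1a by 4.22 ± 0.11 on the log2(TPM + 1) scale (SD, n = 4), and the ratio of their TPM lay between 18.3 and 22.0. Acaca exceeded Cpt1a by 0.27 ± 0.08, or by 1.07 ± 0.08 with the longest coding transcript as length, and Cpt2 exceeded Cpt1a by 0.85 ± 0.09 on the same scale (SD, n = 4 each). Cpt2 stood above Elovl6, and above Acaca with the union of exons as length but not with the longest coding transcript, and Scd1 and Acacb stood below both carnitine genes. From high to low the mean levels followed the order Acly, Fasn, Scd2, Elovl1, Cpt2, Elovl6, Acaca, Cpt1a, Scd1 and Acacb. In 45 of 45 pairs of genes the direction was the same in all 4 libraries. In a two-sided exact permutation test over the signs of the differences, 4 libraries allow no p under 0.125, and every pair had that value (0.125 after Benjamini-Hochberg adjustment over the 45 pairs), which leaves 0.05 out of reach in this design. Of the 9 pairs of neighbours in the order, 1 had overlapping library values, namely Acly and Fasn, while each of the 9 mean differences was larger than its SD.

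**Figure D2:**
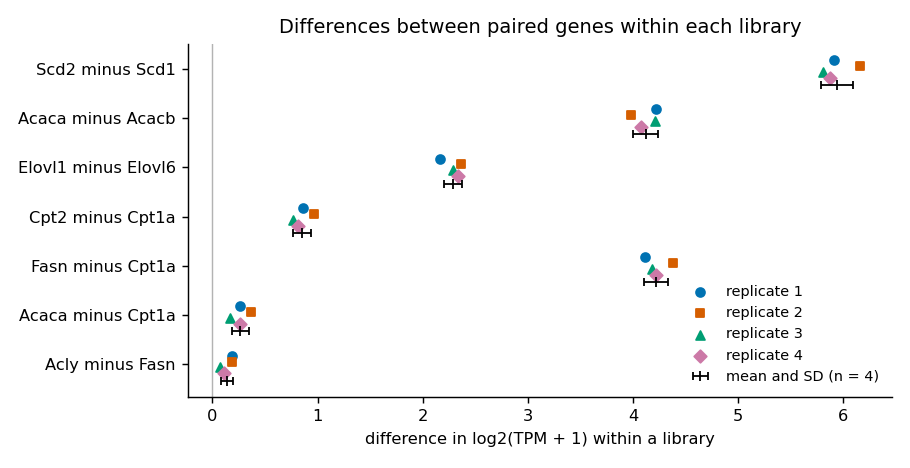
Difference in log2(TPM + 1) between paired genes within each of the 4 libraries, one symbol per library, with the mean and SD (n = 4) as a black bar. Every point lies to the right of 0, from 0.07 for Acly minus Fasn in replicate 3 to 6.16 for Scd2 minus Scd1 in replicate 2.

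The middle of this order depended on the length by which counts were divided. Exon lengths in the files join the exons of all transcripts of a gene, which for Acaca gave 17074 bases, while its longest coding transcript in GENCODE vM21 has 9513. For Elovl1 the lengths were 2726 and 1811 bases, and for the other 8 genes they differed less. With the longest coding transcript as the length for all genes, an alternative chosen after the data were seen, Acaca stood higher in the order, at 27.8 ± 1.36 TPM, above Cpt2 at 23.8 ± 1.10 and Elovl6 at 19.2 ± 0.857 (SD, n = 4 each). Scd2 at 138 ± 9.89 and Elovl1 at 135 ± 9.14 TPM then differed by less than the spread between libraries, by 0.03 ± 0.05 on the log2(TPM + 1) scale (SD, n = 4). Acly, Fasn, Cpt1a, Scd1 and Acacb kept their places under both lengths. Which transcripts the cells made was not measured.

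**Figure D3:**
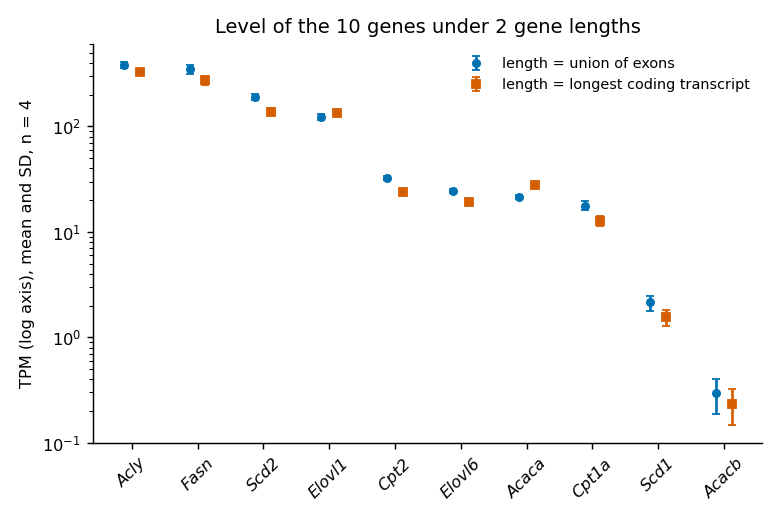
Mean TPM of the 10 genes (log axis) with the union of exons or the longest coding transcript as gene length, with SD bars (n = 4 libraries). Acaca moves to 27.8 from 21.5 TPM with the shorter length, and passes Cpt2 and Elovl6.

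Variation between the replicates was not called for any of the 10 genes. In edgeR's goodness-of-fit test of an intercept-only model, 0 of the 10 genes passed an adjusted p of 0.05, against 0.362% of the 12712 genes tested. At that share a count of 0 among 10 genes was the likely outcome and tells nothing particular to them. The same count at an unadjusted p under 0.05 was also 0, with edgeR p-values from 0.143 for Acacb to 0.872 for Cpt2. The share of all genes tested at that unadjusted threshold was not computed, so nothing particular to the 10 genes is drawn from it. The median residual deviance of the 10 genes was 2.06, against 1.98 over all genes tested. With a single common dispersion in place of the trend on abundance, Acacb passed (edgeR adjusted p = 0.0123), while 862 genes in all did so. In relative terms the spread was largest for the genes with few fragments, with a coefficient of variation of 37.0% for Acacb and 16.3% for Scd1 against 4.37% to 9.84% for the other 8 genes.

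The libraries differed from one another by small amounts in these genes. Replicate 1 was the lowest library for 6 of the 10 genes, against 34.0% of the genes past the filter, and replicate 3 was the highest for 7, against 25.6%. The median log2 deviation from the gene mean, on TMM-scaled CPM, was -0.065, 0.010, 0.080 and 0.004 in replicates 1 to 4, while the medians over all genes past the filter lay between -0.0010 and 0.0025. Fasn deviated by -0.17 in replicate 1 and Acacb by -0.90. Replicate 1 also differed in base composition: across 12692 genes, which are not independent replicates, the deviations of genes correlated with transcript GC content with a Spearman's rho of -0.345 in replicate 1 and of 0.084 to 0.201 in the other libraries. With that trend removed, the deviation of Fasn, with 57.9% GC, was -0.08 in replicate 1, while that of Acacb, with 56.7% GC, was -0.83 and the median over the 10 genes was -0.066.

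**Figure D4:**
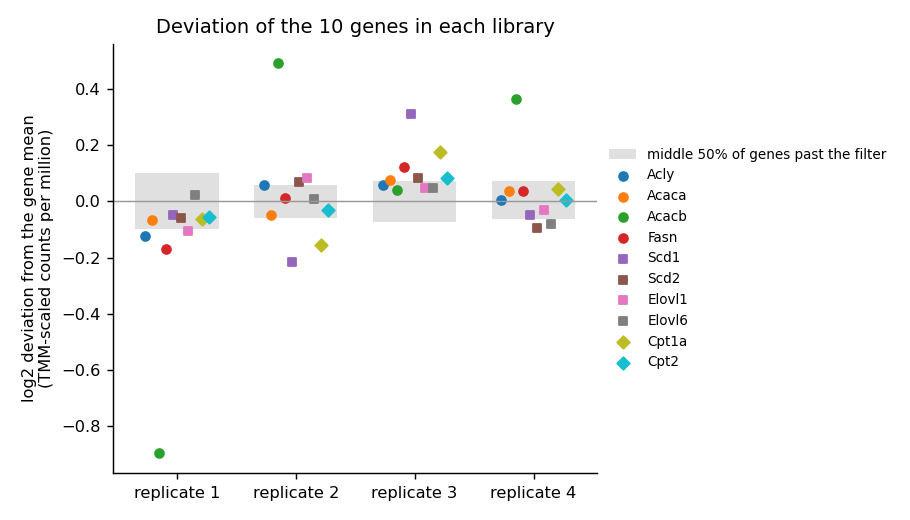
Log2 deviation of each gene from its mean over the 4 libraries, on TMM-scaled CPM, with the middle 50% of the 12712 genes past the filter as a grey band. Acacb spreads from -0.90 in replicate 1 to 0.49 in replicate 2, and the other 9 genes stay between -0.22 and 0.31.

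Genes around the 10 enzymes were read from lists of the same pathways, and 0 of their 90 tested genes varied between replicates in the edgeR test (adjusted p under 0.05), beside 0.362% of all genes tested, a share at which a count of 0 tells nothing particular to the lists. Over all the lists, 70 of 108 genes reached 10 TPM in each of the 4 libraries. The share was 16.0% over all annotated genes and 63.8% over the genes past the filter. In the supply of citrate, acetyl-CoA and NADPH, 4 of 7 genes reached 10 TPM in each of the 4 libraries. Slc25a1, the mitochondrial citrate exporter, stood at 148 ± 4.65 TPM, Mdh1, the cytosolic malate dehydrogenase, at 261 ± 6.99, and G6pdx, which makes NADPH in the pentose phosphate pathway, at 126 ± 4.09 (SD, n = 4 each). Me1, the cytosolic malic enzyme that also makes NADPH, was below 1 TPM in every library, with 43 fragments in all. Acss2, which makes acetyl-CoA from acetate, had a mean of 5.02 TPM, or of 12.6 TPM with the longest coding transcript as length, below Acly with either.

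Among regulators of the lipogenic genes, 10 of 13 reached that level. Srebf2, the SREBP best known for sterol genes, stood at 336 ± 21.6 TPM, and Srebf1, the SREBP best known for fatty-acid genes, at 94.8 ± 10.3 (SD, n = 4 each). Srebf1 was at 79.4 TPM in replicate 1 and at 98.6 to 101 in the others, but it did not pass the edgeR test (adjusted p = 0.559). Acly and Fasn were lowest in replicate 1 too, as were 34.0% of the genes past the filter. Over the 11 regulators tested, the median log2 deviation in replicate 1 was -0.083, and -0.003 with the GC trend removed. Whether Srebf1 varies together with Acly and Fasn was not tested. Mlx, a partner of ChREBP, stood at 110.4 ± 4.66 TPM while Mlxipl, encoding ChREBP itself, had 32 fragments in all. Nr1h2, encoding LXRβ, stood at 103 ± 8.28 TPM, and Thrsp, a lipogenic gene of liver and fat, had no fragment, which allows up to 0.0977 TPM.

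The list of genes that set malonyl-CoA had 7 of 9 genes at this level. AMPK, the kinase that inactivates acetyl-CoA carboxylases, was represented by Prkag1 at 226 ± 7.44 TPM and Prkab1 at 73.5 ± 4.11, and its upstream kinase gene Stk11 stood at 109 ± 3.80 (SD, n = 4 each). Of its catalytic subunit genes, Prkaa1 stood at 39.2 ± 1.92 TPM and Prkaa2 at 0.120 ± 0.0440 TPM (SD, n = 4 each), with 115 fragments of Prkaa2 in all. Mlycd, which removes malonyl-CoA, stood at 11.3, 14.8, 14.1 and 17.5 TPM in replicates 1 to 4.

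On the oxidation side, each of the 16 genes of mitochondrial β-oxidation reached 10 TPM throughout, beside 63.8% of the genes past the filter. Their median was 41.5 TPM, or 61.9 TPM with the longest coding transcript as length. Etfa, a subunit of the flavoprotein that passes on electrons, stood at 157 ± 6.00 TPM, Acadvl, the very-long-chain acyl-CoA dehydrogenase, at 153.5 ± 7.96, and Acadl, the long-chain one, at 119 ± 1.76 (SD, n = 4 each). Acadvl exceeded Cpt1a by 3.05 ± 0.18 on the log2(TPM + 1) scale (SD, n = 4). The rest of the carnitine system was lower, 3 of 8 genes reaching 10 TPM throughout and the median being 5.06 TPM. Slc25a20, the carrier that exchanges acylcarnitine for carnitine between the steps of Cpt1a and Cpt2, stood at 17.6 ± 0.804 TPM (SD, n = 4), and it differed from Cpt1a by -0.01 ± 0.08 on the log2(TPM + 1) scale, less than the spread between libraries. With the longest coding transcript as length its mean was 34.5 TPM, against 12.8 TPM for Cpt1a, so that their order rests on the length used. Slc22a5, the plasma-membrane carnitine transporter, stood at 14.8 ± 0.766 and Aldh9a1, an aldehyde dehydrogenase of carnitine synthesis, at 119 ± 1.26 TPM (SD, n = 4 each), while Bbox1, which catalyses the last step of that synthesis, had no fragment.

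Of the PPAR regulators of oxidation genes, Ppard stood at 36.1 ± 2.53 TPM and the co-activator gene Ppargc1b at 11.1 ± 0.840 (SD, n = 4 each). Ppara had 71 fragments in all and was below 1 TPM in every library. No fragment of Pparg or Ppargc1a was counted, which allows up to 0.0724 and 0.0324 TPM.

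**Figure D5:**
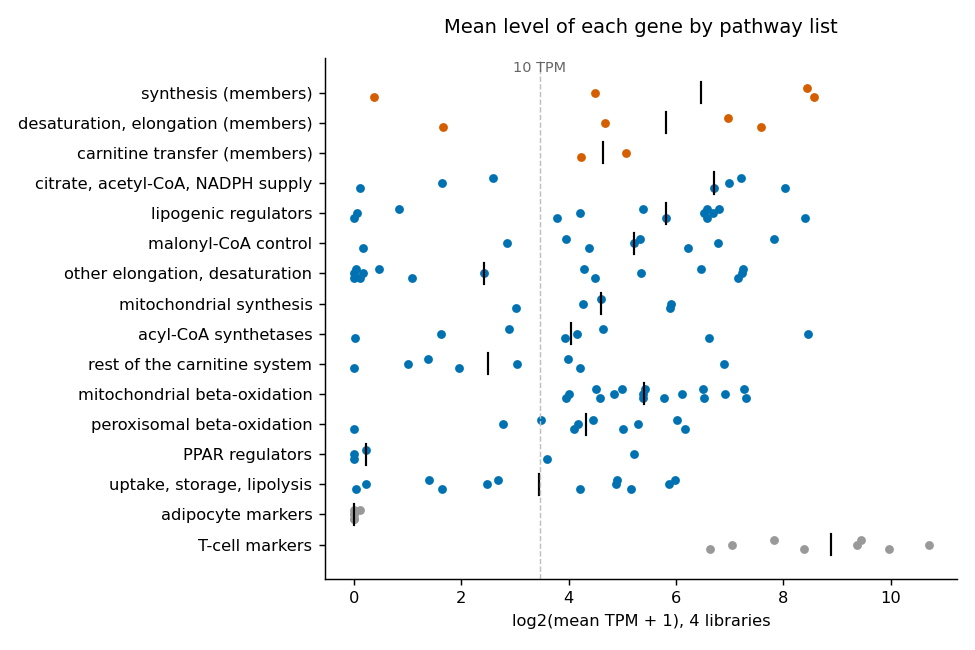
Mean level of each gene over the 4 libraries, as log2(mean TPM + 1), by pathway list, with a black tick at the list median and a dashed line at 10 TPM. The 16 genes of mitochondrial beta-oxidation all lie to the right of the line, and the adipocyte markers lie at or near 0.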

How the data were processed

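Counts were deposited by the authors as 1 table per library. The counter was featureCounts 1.4.6-p4, per the file headers, run on exons of GENCODE vM13 in paired mode with both mates required and strand setting 2 (reverse-stranded); multi-mapping fragments and those shared by genes were not counted. The build is mm10 per the labels, and the settings of the aligner are not given in the sources used here. Symbols came from GENCODE vM21 by identifier without version (50376 of 50600 matched). TPM was computed here from the counts and exon lengths. The test of replicate variation used edgeR 4.0.16 (R 4.3.3, limma 3.58.1): filterByExpr with a minimum count of 10, TMM factors (0.998 to 1.002), trended dispersion, and residual deviance of an intercept-only model with Benjamini-Hochberg adjustment at 0.05. The test was checked on counts simulated with its own fitted dispersion, where only recovery of large changes and few false calls were required. Size factors of DESeq2 1.42.0, another filter, a common dispersion, other pseudocounts and lengths and each replicate left out were alternatives. Intervals and the floor of 3 fragments cover counting error only. Every pair of libraries differed by more than sampling noise (chi-square over its degrees of freedom 9.94 to 36.9), so none was treated as a repeat deposit of another; whether they are independent animals is not shown by this. Other steps ran in Python 3.11.15 (scipy 1.17.1, pandas 2.3.3).

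The genes, lists and tests were chosen with earlier results of these data known. Named are the 10 genes, and in each list the 3 of highest mean TPM, those below 1 TPM in every library, those past the test, and isozymes, paralogues and related genes listed by name (Cpt1b, Cpt1c, Slc25a20, Srebf1, Srebf2, Scd3, Scd4, Elovl2 to Elovl5, Elovl7 and Mlycd). Genes of the marker lists are given by list. Acss2 and Prkaa1 fall outside this rule and were chosen after their values were seen. Of 110 pathway genes, 108 had a row under their symbol. A planned comparison of protein sequences was not run. Files that only list other files were not used here.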

Additional observations from a re-analysis of the deposited data

Results flagged for a closer look

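In 8 of 106 sets of values 1 library stood apart, its distance from the next being over the critical share of the range for 4 samples. Chance alone flags about 1 set in 20 where values are continuous and normally distributed. A gene with fragments in only 1 library is flagged by construction, so that rate does not hold for such sets. Srebf1 was low in replicate 1, at 79.4 TPM against 98.6 to 101 in the other libraries. Total fragments set replicate 2 apart, at 273136467. The other 6 sets are genes of few fragments. Elovl2 was highest in replicate 4 (0.389 TPM, 21 fragments). Elovl3 (0.101 TPM, 12 fragments), Hacd4 (0.0168 TPM, 9 fragments) and Slc27a2 (0.0471 TPM, 14 fragments) had fragments in the deepest library, replicate 2, and in no other. Abcd2 (0.0256 TPM, 2 fragments) and Cd14 (0.135 TPM, 3 fragments) had them in replicate 3 and in no other. No value of the 10 genes, and none of the 7 differences between paired genes described in full, was set apart in this way.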

How the results depend on the processing

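The number of the 10 genes at 10 TPM or more in every library (8) was the same under all 9 alternatives run, namely TMM and DESeq2 scaling, other lengths, a total without mitochondrially encoded genes and each replicate left out. Every pair of genes had the same direction in all 4 libraries. Leaving out a replicate, rescaling a library or changing the pseudocount therefore could not reverse a pair, and only other lengths could. Differences were recomputed for chosen pairs, not for all 45, which gave 135 values, most under alternatives that could not reverse a pair. Of the 135, 133 kept the direction of their mean, though some changed in size as given above. Scd2 minus Elovl1 with the longest coding transcript counts among the 133, at 0.03 ± 0.05 (SD, n = 4). The exceptions arose with the longest coding transcript as length, under which Elovl6 minus Acaca was -0.51 and Cpt2 minus Acaca was -0.22 on the log2(TPM + 1) scale, against 0.19 and 0.58 with the union of exons; the shorter length of Acaca raises its level by construction. No pair could pass 0.05, since the smallest exact p is 0.125 with 4 libraries and 0.25 with 3. Against 46 genes called as varying between replicates, 862 were called with a common dispersion (35 of the 46 among them), 46 with no filter on low counts (31 shared), 45 with DESeq2 size factors (45 shared), 58 with the GC trend removed (44 shared), and 25 (without replicate 2, 25 shared) to 40 (without replicate 1, 29 shared) with a replicate left out; the cause was not tested. Of the 10 genes, 1 (Acacb) was among the 862, and 0 passed under the other 7 alternatives. The 70 pathway genes at 10 TPM or more in every library became 77 at a threshold of 5 TPM. Thin counts limit Acacb, for which 3 fragments correspond to at most 0.0222 TPM. No pairing of samples across conditions was possible because the labels give 1 group.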

Other observations

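Fatty acids that enter from outside or from stores pass through acyl-CoA synthetases. Of 8 such genes 5 reached 10 TPM in each of the 4 libraries, beside 63.8% of the genes past the filter. Acsl5, a mitochondrial and reticulum form, was the highest, at 353, 349, 352 and 354 TPM in replicates 1 to 4. Its level depended on the length, with a mean of 352 TPM for the union of exons and 189 TPM for the longest coding transcript. Acsl4, which prefers arachidonic acid, stood at 97.2 ± 5.36 TPM and Slc27a4, a fatty-acid transport protein, at 23.8 ± 1.97 (SD, n = 4 each), and Slc27a2 had 14 fragments in all. Of 12 genes of uptake, storage and lipolysis 6 reached that level. Fabp5, a cytosolic fatty-acid binding protein, stood at 62.5 ± 3.53 TPM (163 with the longest coding transcript as length) and Pnpla2, the triglyceride lipase, at 57.6 ± 7.24 (SD, n = 4 each). Plin3, a lipid-droplet coat protein, stood at 34.9 ± 3.04 TPM (SD, n = 4), or at 14.9 with the longest coding transcript as length. Cd36, a fatty-acid uptake receptor, had 105 fragments in all, Vldlr, a lipoprotein receptor, had 27, and both were below 1 TPM in every library.

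Of 10 genes of peroxisomal β-oxidation 7 reached 10 TPM throughout. Hsd17b4, the bifunctional enzyme, stood at 71.0 ± 1.49 TPM and Abcd3, a peroxisomal acyl-CoA transporter, at 64.0 ± 1.89 (SD, n = 4 each). Acaa1a, a thiolase, stood at 38.5 ± 1.36 TPM (SD, n = 4), or at 69.7 with the longest coding transcript as length, while Abcd2, a transporter related to Abcd3, had 2 fragments in all. Mitochondria also have a fatty-acid synthesis of their own that feeds lipoic acid, and 4 of its 5 genes with a row reached that level, with Mecr, its enoyl reductase, at 58.8 ± 2.15 TPM (96.6 with the longest coding transcript as length) and Mcat, its malonyltransferase, at 58.3 ± 3.17, and Ndufab1, its acyl carrier protein, at 23.2 ± 1.36 (SD, n = 4 each).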
